A study of Mus musculus with 12 samples.

Results

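Integrins and laminins were followed through 9 mouse genes, 6 that encode integrin chains (Itga2, Itga3, Itga6, Itgav, Itgb1 and Itgb4) and 3 that encode laminin chains (Lama3, Lama5 and Lamb3). They were taken by gene symbol, and all 9 were found among the 14499 symbols of the deposited tables. RNA was sequenced from Lgr5+-GFP+ stem cells sorted from the intestinal epithelium of C57BL/6 mice, with 12 libraries in all, 4 per genotype, each genotype being 4 mice by the series' own design text. Every mouse carried Lgr5-CreERT2-ires-eGFP, which places a tamoxifen-dependent Cre and GFP under control of Lgr5, and every mouse received tamoxifen as 1 injection followed by 5 days of medicated diet, with cells taken at day 15. The genotypes were Apc+/+ (Apc_WT, no floxed copy), ApcFlox/+ (Apc_HET, 1 floxed copy) and ApcFlox/Flox (Apc_KO, both copies floxed). Sex, age and batch are not stated in the labels.

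Integrins are cell surface receptors made of an alpha and a beta chain that bind proteins of the extracellular matrix and join them to the cytoskeleton. Laminins are trimers of an alpha, a beta and a gamma chain and are a main component of the basement membrane, the sheet on which the intestinal epithelium rests. The Itgb4 chain pairs with the Itga6 chain in the laminin receptor of hemidesmosomes, whereas Itgb1 pairs with many alpha chains, and the Apc protein holds together the complex through which beta-catenin, the effector of Wnt signalling, is degraded.

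Levels are in FPKM, in which the fragments of a gene are scaled by transcript length and by the mapped fragments of the library. The FPKM of a library summed to between 391710 and 518428. The number of fragments is unknown. A relative depth was read from the most frequent ratio between low FPKM values of a library and those of Apc_WT replicate 1. It was 0.527 to 1 in Apc_WT libraries, 0.745 to 0.886 in Apc_HET and 0.428 to 0.605 in Apc_KO. It could not be read in replicate 2 of Apc_WT and of Apc_KO. The Apc_KO readings rest on 33 to 51 genes, against 259 to 320 in the other libraries compared. Apc itself measured 9.97, 6.91, 10.5 and 8.20 FPKM in Apc_WT, 9.81, 11.0, 10.7 and 12.5 in Apc_HET, and 17.3, 12.9, 15.3 and 9.94 in Apc_KO. Those are values for the whole gene, so the deletion of the floxed part was not measured. Lgr5, the gene behind the sort, was present in every library, with Apc_WT at 20.2 to 30.0 FPKM, Apc_HET at 21.3 to 31.6 and Apc_KO at 27.0 to 65.4. The 10 markers of intestinal epithelium summed to 2196 to 2604, 2234 to 2559 and 2071 to 3397 FPKM in the same order, and the 8 stem cell markers to 5343 to 6122, 5000 to 8095 and 536 to 1218 FPKM. Olfm4 made up most of that sum in Apc_WT and Apc_HET. Without it the sums were 305 to 365, 307 to 442 and 414 to 631 FPKM, and in Apc_KO against Apc_WT 4 of the 8 stem cell markers were called higher and 1 lower. Of 9 epithelial markers tested, 6 were lower and 1 higher in that comparison, with a median log2 difference of -0.55. Over all genes it called 27.9% higher and 17.7% lower, with a median of 0.12. The means of Vil1, Krt20 and Cdx1 were 212, 77.9 and 96.4 FPKM in Apc_WT and 85.6, 19.7 and 39.9 in Apc_KO, and that of Krt18 was 309 and 791. The 2 not called were Epcam, at 791 FPKM in both genotypes, and Krt8, at 468 and 435 FPKM. Other cell types were read through 7 of 14 fibroblast and smooth muscle markers, with sums of 10.9 to 108 FPKM for Apc_WT, 23.1 to 644 for Apc_HET and 133 to 161 for Apc_KO. Among them Col6a1 was listed at 0 in all Apc_KO libraries. The sums for 4 of 9 endothelial markers were 51.1 to 78.5, 38.4 to 56.7 and 84.1 to 122 FPKM, and those for 8 of 14 leukocyte markers 90.8 to 158, 94.3 to 216 and 97.6 to 244 FPKM. Among the leukocyte markers, Cd68, which shares its value with 4 neighbouring genes, averaged 83.0, 87.7 and 122 FPKM. Cd3d averaged 27.5, 47.5 and 37.5 FPKM in the same order. In sorted bulk cells, fewer cells of a type and less RNA per cell cannot be told apart.

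Differences were tested with limma on log2(FPKM + 1) over all genes that reached 1 FPKM in 4 or more libraries, and a gene was called at a Benjamini-Hochberg adjusted p under 0.05. Of the 9 genes 8 were tested, since the row named Itga6 alone stayed under 1 FPKM. Between Apc_KO and Apc_WT 5 of the 8 were higher in Apc_KO (Lama5, Lama3, Itgb4, Itgav and Itgb1), 2 were lower (Itga2 and Itga3), and Lamb3 was not called. That comparison called 45.5% of all 12962 genes tested, 27.9% as higher and 17.7% as lower. The libraries of the genotypes did not overlap for 7 of the 8, against 40.4% of all genes. The median log2 difference was 0.67 over the 8 genes and 0.12 over all genes. Lama3 passed the filter only through its Apc_KO libraries and so had to differ, so these counts are a description only. The marker sums for fibroblasts and smooth muscle and for endothelium given above were also higher in every Apc_KO library than in any Apc_WT library, and the relative depth was read as lower in Apc_KO than in Apc_HET. Their part in the differences was not tested.

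The bases before the start of Lama5, which changed most, and of Itga2, which had the largest fall, are shown to set the promoters of the extremes side by side. Both are RefSeq sequences on GRCm38.p6 and read 5′ to 3′ on the minus strand. Capitals mark GC boxes (GGGCGG on either strand), which zinc finger factors of the Sp family bind. Lama5 lies at chr2:180225905-180226109 and Itga2 at chr13:114932101-114932350.
Lama5: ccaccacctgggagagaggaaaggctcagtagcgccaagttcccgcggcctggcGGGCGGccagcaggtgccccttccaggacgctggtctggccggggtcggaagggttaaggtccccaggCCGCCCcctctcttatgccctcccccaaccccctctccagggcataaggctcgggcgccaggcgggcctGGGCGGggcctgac
Itga2: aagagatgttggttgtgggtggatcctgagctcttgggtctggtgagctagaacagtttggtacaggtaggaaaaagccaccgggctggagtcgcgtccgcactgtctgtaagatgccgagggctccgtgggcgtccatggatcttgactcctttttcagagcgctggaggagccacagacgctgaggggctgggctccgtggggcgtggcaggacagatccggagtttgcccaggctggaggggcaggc
The Lama5 stretch is 205 bases long and holds 3 GC boxes, and the Itga2 stretch is 250 bases long and holds none. Over the whole 250 bases before its start, of which the last 45 lie within the longest RefSeq model and are not shown, Lama5 had 4 GC boxes and a GC content of 72.4%. Itga2 had a GC content of 60.8%, and the median of 32851 promoters was 52.4%. Promoters of 6 of the 9 genes were read, 8 in all. GC boxes were present in those of Lama5, Itga3 (3 and 1) and Itgb1 (1) and not in those of Itga2, Itgav and Lamb3, and 32.7% of all promoters held one. No match to the TCF/LEF motif of Wnt target genes (CTTTGAT or CTTTGAA, either strand, held by 7.48% of all promoters) or to the AP-1 motif (TGANTCA, held by 6.75%) was found in the 8 windows. A match is a description of the sequence only.

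Among the laminin chains, Lama5, the alpha chain most widespread in epithelial basement membranes, showed the largest difference of the 8 genes tested. It measured 1.33, 1.68, 2.33 and 1.15 FPKM in Apc_WT, 1.76, 1.90, 1.59 and 1.55 in Apc_HET, and 62.9, 17.5, 21.3 and 59.2 in Apc_KO. All 4 Apc_KO libraries lay far above the other 8, and replicates 1 and 4 lay well above replicates 2 and 3. The means were 40.2 ± 24.1 FPKM in Apc_KO and 1.62 ± 0.521 in Apc_WT (SD, n = 4 each), a ratio of 24.8, and the log2 difference was 3.78 (SE 0.36, 95% interval 3.0 to 4.56, limma adjusted p = 4.15e-06). The deposited locus, chr2:180176369-180226401, spans the whole RefSeq gene.

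Lama3, the alpha chain of the laminin that anchors hemidesmosomes, went from trace levels to a few FPKM. Its values were 0.255, 0.221, 0.155 and 0.591 FPKM in Apc_WT, 0.333, 0.167, 0.164 and 0.194 in Apc_HET, and 5.39, 4.46, 3.34 and 5.70 in Apc_KO. The Apc_KO libraries did not overlap with the others, and again replicates 1 and 4 were the highest. Since only these libraries carried it over the filter, its test adds nothing to that. The Apc_KO mean was 4.72 ± 1.06 FPKM (SD, n = 4), and the log2 difference from Apc_WT was 2.12 (SE 0.16, limma adjusted p = 7.74e-07). The locus behind these values, chr18:12506922-12529618, spans only 9.09% of the RefSeq gene, so the level of the full transcript is not known from it. With a pseudocount of 5 FPKM the difference was 0.87, and with 0.1 FPKM it was 3.65.

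Lamb3, the beta chain of the same laminin, measured 9.61, 8.81, 7.97 and 7.53 FPKM in Apc_WT, 9.27, 10.5, 16.8 and 5.22 in Apc_HET, and 16.6, 10.5, 10.7 and 17.2 in Apc_KO. Every Apc_KO library was above every Apc_WT library, while the Apc_HET libraries spread across both. The log2 difference between Apc_KO and Apc_WT was 0.61 (SE 0.27, 95% interval 0.02 to 1.20), which did not pass the test (limma adjusted p = 0.0849). In a fit of those genotypes alone, without the widely spread Apc_HET libraries, it passed (adjusted p = 0.0270), as it did without Apc_HET replicate 3 (0.0392) or 4 (0.0320), and over all alternatives the adjusted p ran from 0.0270 to 0.323. Its locus, chr1:193301973-193343940, covers 84.6% of the RefSeq gene.

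Chains that can complete trimers with Lama5 were examined next. Lamb2, a beta chain that can assemble with Lama5, measured 1.56, 1.54, 1.49 and 1.03 FPKM in Apc_WT and 17.0, 9.10, 11.0 and 12.2 in Apc_KO, a log2 difference of 2.44 (SE 0.17, limma adjusted p = 4.04e-07). Lamc1, the most common gamma chain, was higher by 1.12 on the log2 scale (adjusted p = 0.000240), and Lamb1, the most common beta chain, by 0.70 (adjusted p = 0.0124). For each of these chains the Apc_KO and Apc_WT libraries did not overlap. Against Apc_HET, Lamb2 and Lamc1 were also called higher, while Lamb1 overlapped and was not called (limma adjusted p = 0.0665). Lama5, Lama3, Lamc1 and the beta chains Lamb2 and Lamb1 had larger log2 differences than Lamb3, though differences between genes were not tested. The FPKM ratio of Lama5 to Lamc1 was 0.330 to 0.754 in Apc_WT and 2.37 to 10.8 in Apc_KO, and that of Lama5 to Lamb1 was 1.88 to 2.27 and 12.9 to 33.8. In these libraries Lama5 RNA thus passed from below to above the level of Lamc1, a description of RNA per length and not of assembled protein.

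**Figure D1:**
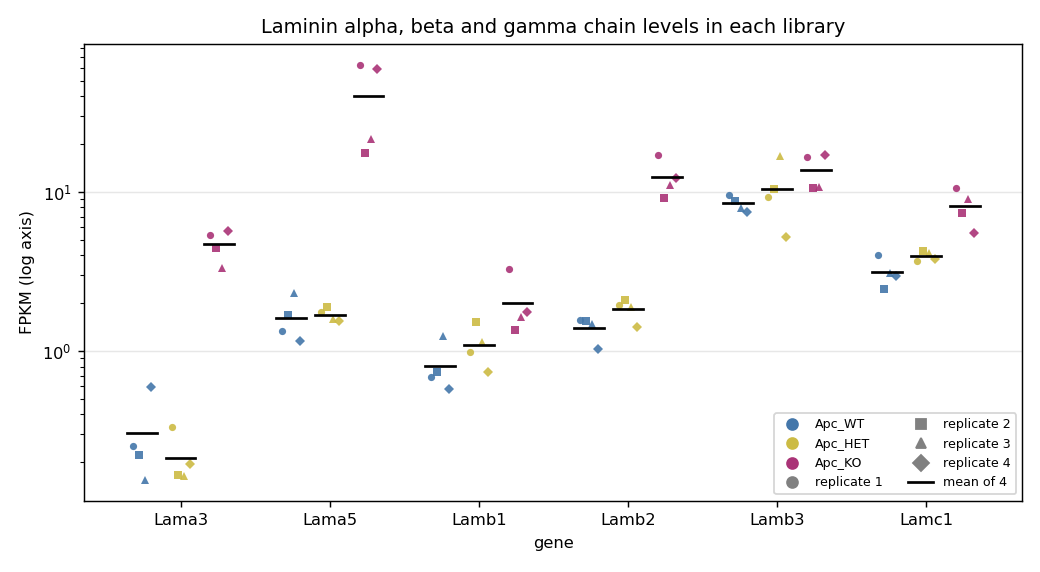
FPKM on a log axis for 6 laminin chains in the 4 libraries of each genotype (blue Apc_WT, yellow Apc_HET, red Apc_KO; symbols give the replicate, bars the mean of 4). Lama5 moved from 1.62 to 40.2 FPKM between Apc_WT and Apc_KO and passed the other chains shown, while Lamb3 started highest of these at 8.48 FPKM and ended at 13.8.

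Both integrin beta chains were higher in Apc_KO, Itgb4 by the larger amount. Itgb4, the beta chain of hemidesmosomes, measured 35.0, 36.8, 44.0 and 37.0 FPKM in Apc_WT, 38.5, 33.4, 31.2 and 30.5 in Apc_HET, and 84.3, 64.4, 76.1 and 87.3 in Apc_KO. No Apc_KO library came near the other genotypes. The means were 78.0 ± 10.2 and 38.2 ± 3.98 FPKM (SD, n = 4 each), and the log2 difference between Apc_KO and Apc_WT was 1.01 (SE 0.12, limma adjusted p = 2.82e-05). The Itgb4 value is the sum of 2 rows and its locus, chr11:115974912-116012764, is shared with Galk1, a galactose kinase gene that ends on the opposite strand at the end of Itgb4. Strand-specific counting is not given in the sources used here, so reads of the shared end cannot be assigned. Galk1, named here after its values were seen, measured 31.5, 29.7, 33.9 and 40.0 FPKM in Apc_WT and 29.6, 57.4, 51.9 and 70.3 in Apc_KO. Its log2 difference was 0.56 from Apc_WT, which was not called (limma adjusted p = 0.0567), and 0.69 from Apc_HET, which was called (0.0251). Replicate 4 was the highest Apc_KO library of both genes, and replicate 1 was the lowest for Galk1 and the second highest for Itgb4. How far shared reads enter either value was not tested.

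Itgb1, the common beta chain, measured 51.9, 47.7, 54.5 and 45.4 FPKM in Apc_WT, 49.7, 51.8, 49.3 and 53.6 in Apc_HET, and 72.7, 69.9, 68.3 and 53.0 in Apc_KO. Apc_KO replicates 1 to 3 were above all others, and replicate 4 lay within the range of both other genotypes. The log2 difference between Apc_KO and Apc_WT was 0.39 (SE 0.11, limma adjusted p = 0.0118). It did not pass after scaling by size factors (0.27, adjusted p = 0.0779) or quantile normalization (0.35, adjusted p = 0.0659). The locus, chr8:128684844-128733995, covers the RefSeq gene. The FPKM ratio of Itgb4 to Itgb1 ran from 0.674 to 0.815 in Apc_WT and from 0.570 to 0.774 in Apc_HET, and from 0.922 to 1.65 in Apc_KO, so the larger of both beta chains in Apc_WT was Itgb1 in every library, and in Apc_KO it was Itgb4 in replicates 1, 3 and 4.

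The alpha chains went in both directions. Itga2, a collagen receptor chain that pairs with Itgb1, fell. It measured 10.1, 8.75, 10.8 and 8.10 FPKM in Apc_WT, 8.48, 10.3, 11.5 and 11.1 in Apc_HET, and 5.23, 6.80, 8.08 and 2.61 in Apc_KO. The genotypes did not overlap, though the highest Apc_KO library (8.08) and the lowest Apc_WT library (8.10) nearly met, and Apc_KO replicate 4 was the lowest by a wide margin. The log2 difference was -0.72 (SE 0.24, limma adjusted p = 0.0269). This call was lost without Apc_WT replicate 1 (adjusted p = 0.0623), Apc_WT replicate 3 (0.0698) or Apc_KO replicate 1 (0.0503), in a fit of both genotypes alone (0.0614) and with library weights (difference -0.40, adjusted p = 0.0706). The locus, chr13:114832991-114932229, covers the RefSeq gene.

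Itga3, a laminin receptor chain that pairs with Itgb1, also fell, and its call was kept in every alternative run. It measured 25.5, 26.8, 34.8 and 31.7 FPKM in Apc_WT, 31.3, 26.5, 28.8 and 28.8 in Apc_HET, and 24.9, 19.4, 21.8 and 18.3 in Apc_KO. Every Apc_KO library was below every other library, with replicate 1 only just below. The log2 difference from Apc_WT was -0.47 (SE 0.12, limma adjusted p = 0.00748), from means of 21.1 ± 2.91 and 29.7 ± 4.33 FPKM (SD, n = 4 each). The locus, chr11:95044472-95077154, covers the RefSeq gene.

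Itgav, the alpha chain of receptors for fibronectin and vitronectin, rose. It measured 3.72, 3.01, 3.84 and 3.13 FPKM in Apc_WT, 3.12, 3.62, 3.80 and 3.22 in Apc_HET, and 7.50, 6.64, 7.75 and 4.08 in Apc_KO. The 4 Apc_KO libraries were above the rest, replicate 4 by little. The log2 difference from Apc_WT was 0.73 (SE 0.17, limma adjusted p = 0.00325). The locus, chr2:83723595-83806917, covers 98.5% of the RefSeq gene.

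Itga6, the laminin receptor chain that pairs with Itgb4, could not be read in a plain way. The row named Itga6 alone measured 0.858, 0.0714, 0.374 and 0.485 FPKM in Apc_WT, 0.289, 0.130, 0.567 and 0.731 in Apc_HET, and in Apc_KO it was listed at 0 in replicates 1 and 4, at 6.22e-05 in replicate 3 and at 0.339 in replicate 2. A second row joins Itga6 with the predicted genes Gm13647 and Gm13663, and it measured 94.7, 77.4, 85.8 and 76.2 FPKM in Apc_WT, 84.4, 87.4, 98.8 and 93.6 in Apc_HET, and 158, 100, 134 and 201 in Apc_KO. All Apc_KO libraries of the joined row were above all others, replicate 2 by the least, and the log2 difference from Apc_WT was 0.78 (SE 0.18, limma adjusted p = 0.00343). Both rows carry the same locus, chr2:71736548-71748906, which overlaps none of the RefSeq gene (chr2:71786886-71858427) and 2.92% of the GENCODE gene. Which transcripts the joined value counts therefore cannot be told from the tables, and it is given beside the 9 genes, not among them. With it, 8 of 9 passed the test in Apc_KO against Apc_WT, Lama3 among them, where 45.5% of all genes were called. That count is a description only.

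**Figure D2:**
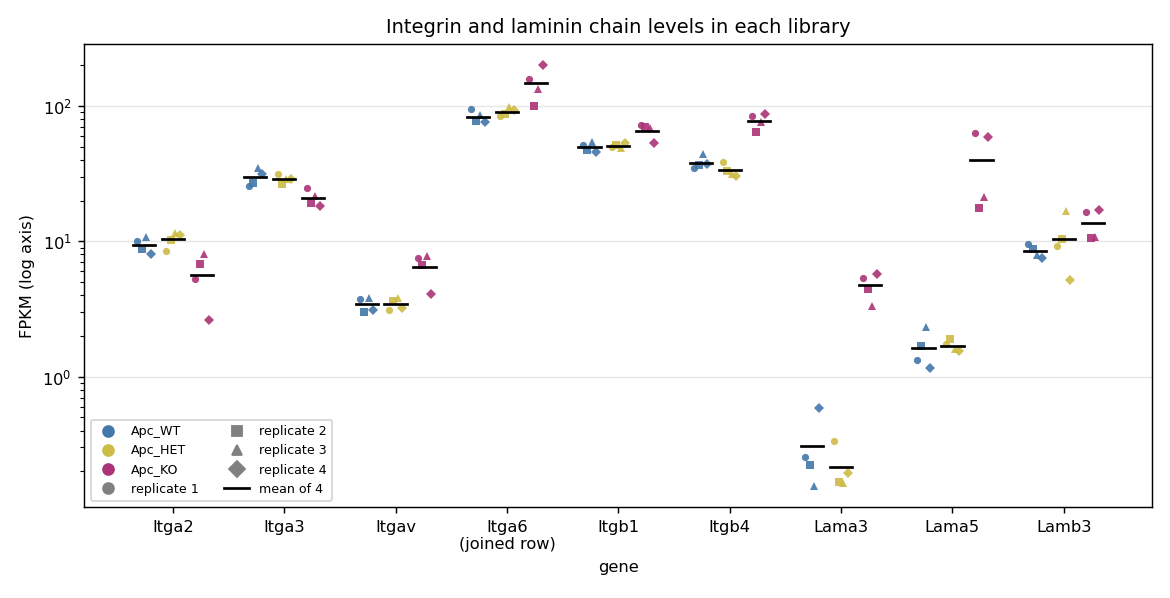
FPKM on a log axis for each gene in the 4 libraries of each genotype (blue Apc_WT, yellow Apc_HET, red Apc_KO; symbols give the replicate, bars the mean of 4); Itga6 is drawn from its joined row. Apc_WT and Apc_HET overlap for every gene shown, and the Apc_KO libraries lie above both for Lama5, Lama3, Itgb4, Itgav and the joined Itga6 row and below both for Itga2 and Itga3.

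Loss of 1 Apc copy was addressed by comparing Apc_HET with Apc_WT. Of the 8 genes, 0 were called by limma and 0 had an unadjusted p under 0.05, the smallest being 0.143 for Itgb4. Over all genes the comparison called 0%, with 561 at an unadjusted p under 0.05. The log2 differences lay between -0.19 for Itgb4 and 0.18 for Lamb3. The libraries of the genotypes overlapped for all 8 genes, while 6.08% of all genes did not overlap. The intervals show what size of difference these data leave possible. For Itgb1 the 95% interval was -0.20 to 0.28, for Itga3 -0.30 to 0.24, for Itgb4 -0.45 to 0.07 and for Itgav -0.36 to 0.37. They were wider for Itga2 (-0.40 to 0.64), Lamb3 (-0.41 to 0.77) and Lama5 (-0.72 to 0.84). For Lama3 it was -0.45 to 0.26.

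Apc_KO was also compared with Apc_HET, with the same Apc_KO libraries as above, so this comparison is not independent of the first. It called 5 of the 8 genes higher and 2 lower, again without Lamb3, where 41.8% of all genes were called, 22.8% higher and 18.9% lower. The libraries did not overlap for 6 of the 8, against 39.5% of all genes. Here too Lama3 passed the filter only through Apc_KO and so had to differ. Its test adds nothing, and these counts are a description only. The log2 differences were 3.72 for Lama5 (limma adjusted p = 5.24e-06), 2.22 for Lama3 (6.37e-07), 1.20 for Itgb4 (7.64e-06), 0.73 for Itgav (0.00387), 0.35 for Itgb1 (0.0219), -0.44 for Itga3 (0.0124) and -0.84 for Itga2 (0.0135). Lamb3 differed by 0.43 (SE 0.27, 95% interval -0.16 to 1.02, adjusted p = 0.225), and its Apc_HET libraries ran from 5.22 to 16.8 FPKM, across the range of Apc_KO. Without Apc_HET replicate 3, the highest, the Lamb3 difference was 0.68 and passed (adjusted p = 0.0396). The Itgb1 call was lost without Apc_HET replicate 1 (adjusted p = 0.0573) or 3 (0.0547), without Apc_KO replicate 2 (0.0601) or 3 (0.0528), in a fit of both genotypes alone (0.0536) and with quantile normalization (0.0856).

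**Figure D3:**
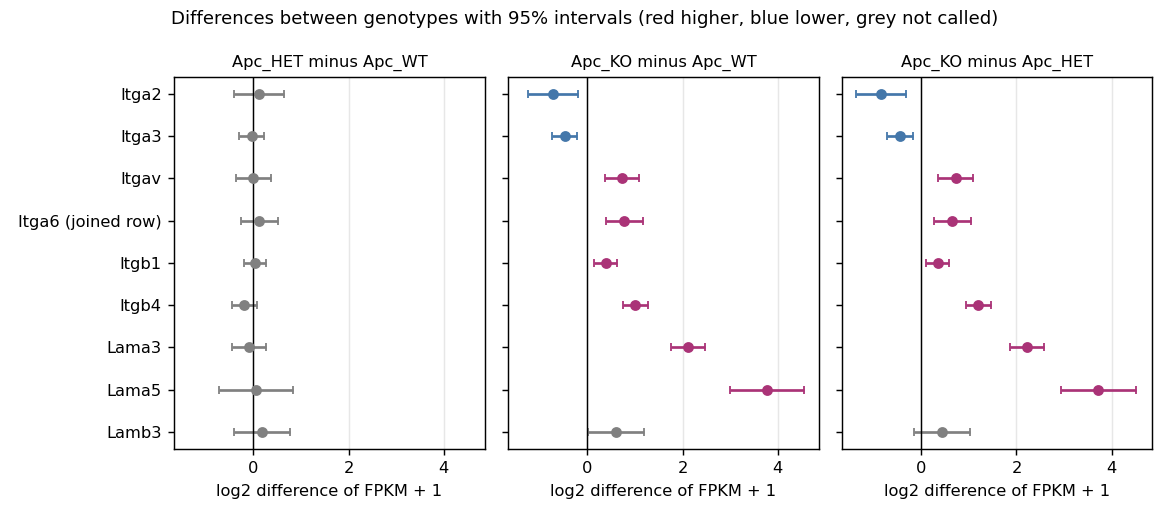
Log2 difference of FPKM + 1 with its 95% interval from limma for each gene in the 3 comparisons (red higher, blue lower, grey not called); Itga6 is drawn from its joined row. In Apc_HET minus Apc_WT the points lie between -0.19 and 0.18 with intervals across 0, whereas Lama5 reaches 3.78 and Lama3 2.12 in Apc_KO minus Apc_WT.

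The order of the levels changed with the genotype. In Apc_WT, Itgb1 (49.9 ± 4.09 FPKM) stood above Itgb4 (38.2 ± 3.98), Itga3 (29.7 ± 4.33), Itga2 (9.43 ± 1.22), Lamb3 (8.48 ± 0.923), Itgav (3.43 ± 0.415), Lama5 (1.62 ± 0.521) and Lama3 (0.305 ± 0.195; SD, n = 4 each). Neighbours in this order did not overlap between libraries, except Itga2 and Lamb3. In Apc_HET the order was the same up to Itga3, with Itgb4 and Itga3 now overlapping, and Lamb3 and Itga2 stood level at 10.4 ± 4.80 and 10.3 ± 1.35 FPKM. In Apc_KO, Itgb4 (78.0 ± 10.2) came first, followed by Itgb1 (66.0 ± 8.84), Lama5 (40.2 ± 24.1), Itga3 (21.1 ± 2.91), Lamb3 (13.8 ± 3.60), Itgav (6.49 ± 1.68), Itga2 (5.68 ± 2.36) and Lama3 (4.72 ± 1.06). The first 4 of these overlapped each with its neighbour, as did Itgav with Itga2 and Itga2 with Lama3, so only the steps around Lamb3 were clear of the spread. Lama5 moved from the level of a minor gene to that of Itga3 and Itgb1, and Itga2 from well above Itgav to beside it.

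The 4 Apc_KO libraries differed among themselves, in an order that some of the genes shared. Replicates 1 and 4 held the highest values of Lama5, Lama3, Itgb4, Lamb3 and the joined Itga6 row, and the lowest of Itga2, whereas Itgav and Itgb1 were lowest in replicate 4 alone. Itga3 did not share this order, with its highest value in replicate 1 and its lowest in replicate 4. The highest Apc_KO library was 3.59 times the lowest for Lama5, 3.10 times for Itga2 and 1.90 times for Itgav, but 1.36 times for Itgb4 and Itga3. Olfm4, a stem cell gene named here after its values were seen, was also split this way, at 106, 674, 702 and 81.7 FPKM in Apc_KO replicates 1 to 4 against 5019 to 5782 in Apc_WT. Lgr5 was not, with 65.4, 35.4, 36.3 and 27.0 FPKM. Fibroblast and smooth muscle marker sums were 149, 161, 148 and 133 FPKM and endothelial sums 122, 84.1, 91.3 and 90.1 FPKM in the same 4 libraries. The part of these differences in the integrin and laminin values was not tested.

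**Figure D4:**
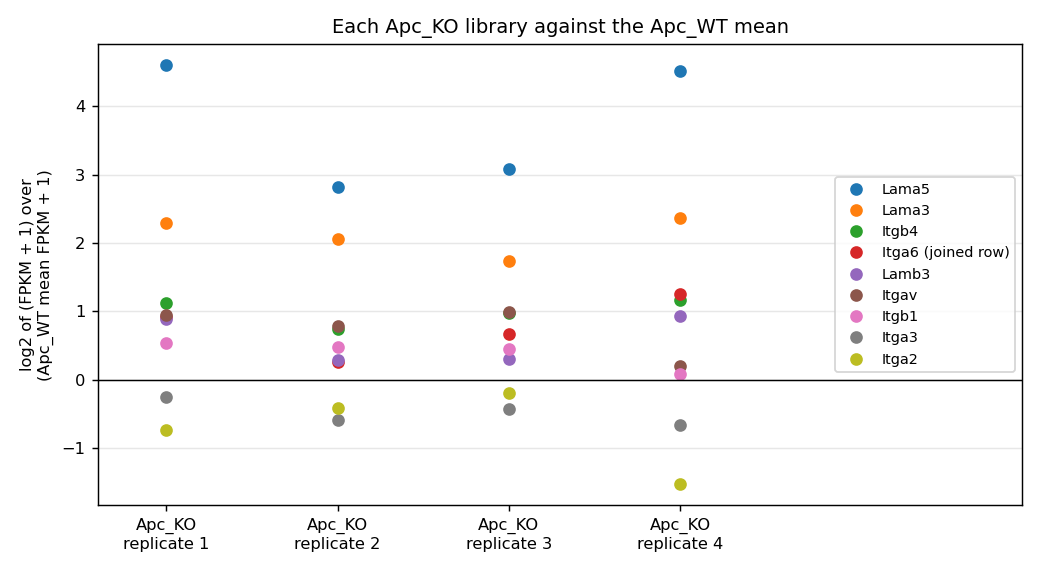
Log2 of FPKM + 1 in each Apc_KO library over the Apc_WT mean FPKM + 1, 1 colour per gene; Itga6 is drawn from its joined row. Lama5 is highest in replicates 1 and 4, Itga2 is lowest in replicate 4, and Itgb1 and Itgav come closest to 0 there.

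Other adhesion genes were read from 7 lists, with Apc_KO against Apc_WT given first. Of the other integrin alpha chains 9 were tested, with 3 higher, 3 lower and 3 not called, and a median log2 difference of 0.60. Over all genes the same comparison called 27.9% higher and 17.7% lower, with a median of 0.12, and the counts of each list below stand beside those shares. Itga5, the fibronectin receptor chain, rose from 3.02 ± 0.534 to 9.12 ± 1.48 FPKM (log2 difference 1.33, limma adjusted p = 0.000947). Itga9 measured 0.178 to 0.592 FPKM in Apc_WT and 2.06 to 5.31 in Apc_KO, on a locus that spans 22.5% of its RefSeq gene. It was the 1 gene of the 9 that passed the filter only through Apc_KO and so had to differ. Itgam, a leukocyte integrin chain, fell from 3.16 ± 0.429 to 0.347 ± 0.186 FPKM (adjusted p = 2.07e-06). Itga1, a collagen receptor chain, was at 0.848 to 2.40 FPKM in Apc_WT and listed at 0 in all 4 Apc_KO libraries. Itgam and Itga1 passed the filter only through Apc_WT and Apc_HET libraries, so their falls are a description only. Of the other beta chains 5 were tested, with 3 higher and 0 lower, among them Itgb5, a partner of Itgav, at 9.03 ± 2.05 against 4.19 ± 0.574 FPKM (adjusted p = 0.000468). Itgb8, another partner of Itgav, was at 0.110 ± 0.0279 FPKM in Apc_WT and 3.78 ± 1.38 in Apc_KO, on a locus with 0.570% of its RefSeq gene, and it too passed the filter only through Apc_KO.

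Among the other hemidesmosome proteins and laminin receptors 9 were tested, with 5 higher, 2 lower and 2 not called. Bcam, a receptor for Lama5-containing laminins, measured 2.68, 3.17, 2.96 and 2.96 FPKM in Apc_WT and 24.7, 17.8, 19.6 and 27.7 in Apc_KO, a log2 difference of 2.55 (SE 0.14, limma adjusted p = 4.59e-08). As with Lama5, replicates 1 and 4 were its highest Apc_KO libraries. The tetraspanin Cd9, which associates with integrins, rose from 43.2 ± 3.84 to 176 ± 85.5 FPKM (adjusted p = 4.78e-05). Its highest Apc_KO libraries were replicates 4 and 2, at 302 and 161 FPKM. Cd151, a tetraspanin partner of laminin-binding integrins, rose by 0.38 (adjusted p = 0.0267). Dag1, which encodes dystroglycan, a laminin receptor that is no integrin, fell from 73.8 ± 11.1 to 40.2 ± 13.1 FPKM (adjusted p = 0.00568), and the matrix-binding proteoglycan Sdc4 from 119 ± 10.2 to 76.5 ± 17.3 FPKM (adjusted p = 0.00430). Plec and Col17a1 were not analysed here. In the list of integrin activation and focal adhesion genes 24 were tested, with 12 higher, 3 lower and 9 not called, against 27.9% higher and 17.7% lower of all genes. Fermt2, which activates integrins, measured 0.0862 ± 0.0572 FPKM in Apc_WT and 4.74 ± 0.281 in Apc_KO, and Tns1 0.0197 ± 0.0162 and 4.08 ± 1.62 on a locus spanning 43.0% of its gene. These 2 of the 12 passed the filter only through Apc_KO and so had to differ. Ptk2b and Bcar1, which signal downstream of integrins, fell by 0.81 and 0.72 on the log2 scale (adjusted p = 2.69e-05 and 0.00109).

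The other basement membrane and matrix proteins gave 6 higher, 3 lower and 3 not called of 12 tested, beside the same 27.9% and 17.7% of all genes. Of the 6 higher, 3 passed the filter only through Apc_KO and so had to differ (Col4a1, Col4a2 and Npnt). Fn1, which encodes fibronectin, rose from 0.0829 ± 0.0768 to 6.14 ± 3.58 FPKM (limma adjusted p = 3.41e-05). It stayed under 1 FPKM in all Apc_WT libraries and would not have passed the filter without those of Apc_KO, so this rise is a description only. Col4a1, a chain of basement membrane collagen, was at 0.0254 ± 0.00824 FPKM in Apc_WT and 4.06 ± 1.10 in Apc_KO. Nid2, which links laminin to collagen, fell from 4.56 ± 0.321 to 0.316 ± 0.138 FPKM (adjusted p = 2.74e-07), and Fras1 from 1.23 ± 0.251 to 0.125 ± 0.0388 FPKM (adjusted p = 8.24e-05). Nid2 and Fras1 passed the filter only through Apc_WT and Apc_HET libraries, so their falls are a description only. Fn1 and Col4a1 are also made by fibroblasts and endothelium. Of 6 fibroblast and smooth muscle markers tested, 3 were higher in Apc_KO than in Apc_WT (Vim, Pdgfra and Acta2), 1 was lower and 2 were not called, and of 4 endothelial markers 2 were higher (Cdh5 and Tek, both carried over the filter by Apc_KO alone) and 2 were not called. The lower one was Pdgfrb, at 3.56 ± 1.55 FPKM in Apc_WT and 1.01 ± 1.12 in Apc_KO (limma adjusted p = 0.00906), on 11.3% of its gene. Vim measured 6.75 to 18.7 FPKM in Apc_WT and 115 to 134 in Apc_KO, Pdgfra 0 to 0.0604 and 7.81 to 34.9 (on 30.6% of its gene), and Cdh5 0 to 0.0158 and 14.2 to 29.3. Pdgfra and Acta2 stayed under 1 FPKM in all Apc_WT libraries and passed the filter only with their Apc_KO libraries counted. Col1a1 averaged 0.786 FPKM in Apc_WT and 1.46 in Apc_KO, Tagln 1.91 and 1.83, and Vwf 54.6 and 64.2. These marker genes were named after their values were seen, and their part in the matrix, laminin and integrin differences was not tested. In Apc_HET against Apc_WT, 0 genes of any of these lists and 0% of all genes were called.

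The genes whose pattern over the 12 libraries was most like that of a given chain were found by the root mean square difference of log2(FPKM + 1), centred on each gene's mean, among 8881 genes with a mean of at least 5 FPKM. For Itgb4 these were Ppp1r9b (0.08), Arl8a (0.12) and Sept9 (0.12). Ppp1r9b had means of 13.2 ± 1.09, 12.2 ± 1.27 and 27.7 ± 2.77 FPKM in Apc_WT, Apc_HET and Apc_KO, below the level of Itgb4 in each genotype. For Lamb3 they were Rhbdf1 (0.15), Blnk (0.19) and Unc45a (0.20), and for Itgb1 Ccdc50 (0.07), Exoc5 (0.07) and Csnk1d (0.08). Rhbdf1 shared the wide Apc_HET spread of Lamb3, at 20.7 ± 7.33 FPKM. For Lama5, added after its values were seen, they were Lrg1 (0.24), Chrnb1 (0.27) and Arntl2 (0.29), each at or near 1 FPKM or below in Apc_WT and at 19.6 to 29.4 FPKM on average in Apc_KO. All these genes share the same libraries, and likeness of pattern is a description.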

How the data were processed

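RNA from Lgr5+-GFP+ intestinal stem cells was sequenced from random-primed cDNA. The authors deposited 1 table of FPKM per library, per the file headers. The submitters' processing notes name TopHat, Bowtie, Cuffdiff and Cufflinks and the builds mm10 and GRCm38, while versions and annotation are not given in the sources used here. FPKM are not counts, so no count model was used. Rows of one symbol were summed. Of 14499 symbols, 295 with differing loci between tables and 122 with a failed estimate were left out, and 14082 were used, 296 of them under joined names.

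The 12962 genes that reached 1 FPKM in 4 or more libraries entered limma 3.58.1 (R 4.3.3) as log2(FPKM + 1), in 1 fit of 3 genotypes with eBayes trend, two-sided, with Benjamini-Hochberg adjustment within each comparison. Fold changes on this scale understate those of low genes. Within a genotype, libraries correlated at 0.913 to 0.981 across genes. The fit was tested on simulated data. Groups came from the genotype labels, and 4 libraries per genotype and an unknown depth limit the precision.

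The 9 genes, the lists and the rules were chosen with earlier results of these data known. Named genes were all 9, up to 2 called genes per adhesion list, direction and comparison with the largest fold change, further laminin chains, Cd151, Plec, Col17a1, Apc and Lgr5, and the 3 nearest patterns of Itgb4, Lamb3 and Itgb1; some that the rule took are not reported here. Alternatives covered scaling, pseudocount (0.1 and 5 FPKM), filter (none and 5 FPKM), summing of loci, genotypes in the fit, variance model, library weights, a replicate block and leaving out each library. The joined Itga6 row was added after seeing the data. Promoters are from RefSeq, GRCm38.p6.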

Additional observations from a re-analysis of the deposited data

Results flagged for a closer look

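Each of 30 groups of 4 libraries was examined for a single library that stood far from the rest (by Dixon's ratio of its gap to the group's range), which chance gives in about 1 group in 20. The row named Itga6 alone was the only one that did so: in Apc_KO, replicate 2 was at 0.339 FPKM while replicate 3 was at 6.22e-05 and replicates 1 and 4 were listed at 0. The joined Itga6 row on the same locus was lowest in that library, at 100 FPKM against 134 to 201 in the other 3.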

How the results depend on the processing

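No called difference changed direction in any alternative run. Lama5, Itgb4, Itga3 and the joined Itga6 row kept their calls in all of them for Apc_KO against Apc_WT and against Apc_HET. Itgav did so too, except that it was not tested with the filter of 5 FPKM. Lama3 kept its call where it was tested, which leaves out that filter and each fit without an Apc_KO library, where it fell short of 4 libraries over the minimum. In the fits with the filter of 1 FPKM Lama3 had to differ, so those kept calls add nothing. The calls of Itga2, Itgb1 and Lamb3 depended on settings, as given in the report, and the cause was not tested. Called genes among those tested numbered 5 to 8 against Apc_WT, 5 to 8 against Apc_HET and 0 in Apc_HET against Apc_WT. The 8 against Apc_HET counted the joined Itga6 row, since the 1 run that gained Lamb3 there lost Itgb1. The number tested also varied between runs, since Lama3 and Itgav were not tested in all of them. Over all genes, Apc_HET against Apc_WT called 1 with a pseudocount of 0.1 FPKM, 1 in a fit of both genotypes alone and 1 with library weights, and between 0 and 4 with a library left out (4 without Apc_HET replicate 4, 3 without Apc_WT replicate 3 and 1 without Apc_KO replicate 2), none of them among these integrins and laminins. The median of all genes in Apc_KO minus Apc_WT was 0.12 as deposited, 0.01 with size factors and -0.02 with quantile normalization, and the calls were 3613 higher and 2291 lower, 2864 and 2829, and 2764 and 3043. The Lama5 difference from Apc_WT ranged from 2.60 to 4.37.

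The labels state no pairing by replicate number, and none was seen. Correlations of same-numbered deviations ran from -0.20 to 0.18 and those of different-numbered ones from -0.23 to 0.25. A weak pairing could not be told from this spread. With the replicate block, 7 of the 8 genes were called in Apc_KO against Apc_WT and 7 against Apc_HET, and 0 in Apc_HET against Apc_WT. Over all genes the block gave 5681, 5178 and 0 calls. FPKM give no fragment counts, so no limit for a value listed at 0 could be set.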

Other observations

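Genes that cut or protect the matrix around these receptors were read from a list of 17 proteases and inhibitors, of which 13 were tested. In Apc_KO against Apc_WT 10 were higher, 0 lower and 3 not called, with a median log2 difference of 1.88, where 27.9% of all genes were higher and 17.7% lower and their median was 0.12. Of the 10, Plau and Timp1 passed the filter only through Apc_KO and so had to differ. Timp2 reached 1 FPKM in 6 libraries and would not have passed without those of Apc_KO. Plat, a plasminogen activator, measured 3.62, 1.69, 0.327 and 1.38 FPKM in Apc_WT, 3.44, 1.98, 8.61 and 0.238 in Apc_HET, and 130, 86.7, 68.7 and 187 in Apc_KO, and its log2 difference was 5.47 (SE 0.56, limma adjusted p = 8.17e-06). All 4 Apc_KO libraries were far above the others, and replicates 1 and 4 were the highest, as for Lama5. Timp1, an inhibitor of matrix metalloproteases, was at 0.169 ± 0.123 FPKM in Apc_WT and 9.50 ± 4.36 in Apc_KO (SD, n = 4 each). Unlike Plat, Timp1 was highest in Apc_KO replicates 4 and 2, at 15.9 and 8.50 FPKM. In Apc_HET against Apc_WT 0 of the 13 and 0% of all genes were called. In Apc_KO against Apc_HET 9 were higher, Plau and Timp1 again among them, and 0 lower. Over all genes that comparison called 22.8% higher and 18.9% lower. Fibroblast and endothelial marker sums, made up mostly of Vim and Vwf in Apc_KO, were also higher there than in Apc_WT, and their part in these values was not tested.

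Tnc, which encodes the matrix protein tenascin, measured 0.0682, 0.369, 11.4 and 5.11 FPKM in Apc_WT, 101, 187, 170 and 6.27 in Apc_HET and 4.98, 0.0898, 5.67 and 26.0 in Apc_KO. It was called lower in Apc_KO than in Apc_HET (log2 difference -3.58, limma adjusted p = 0.0309) and did not pass in Apc_HET against Apc_WT (4.43, adjusted p = 0.987). Its locus spans 7.71% of the RefSeq gene, and Apc_HET replicate 4 was apart from the other 3.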
